A study of Mus musculus with 3 samples.

Results

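Naive T cells rest in the G0 phase until they meet antigen, and this rest is held by proteins that act on mRNA turnover, on growth signalling and on nutrient uptake. BTG1, BTG2 and TOB1 belong to the BTG/TOB family of antiproliferative proteins, which bring the CCR4-NOT deadenylase to mRNAs and so speed the loss of their poly(A) tails. TSC1 and TSC2 form the complex that switches off the small GTPase RHEB and thereby restrains mTORC1, the kinase complex that drives cell growth. TXNIP is an arrestin-like protein that binds thioredoxin and limits glucose uptake. SLFN2 is a Schlafen protein whose loss in mice leaves T cells unable to hold quiescence, and DAPL1 is a small protein related to death-associated protein, whose transcript is abundant in naive T cells.

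These 8 genes were chosen by name, as the rows Btg1, Btg2, Tob1, Slfn2, Txnip, Tsc1, Tsc2 and Dapl1 of a count table of 14355 genes, and all 8 had a row. The table holds 697 single CD4 T cells from spleen and lymph node of C57BL/6 mice of 8 to 12 weeks, with males and females pooled, sorted fresh and without treatment. The sort kept live single cells that carried TCRb, CD4, CD62L and CD5 and lacked CD8, CD25 and CD44, and the cytometer's CD5 signal of each well was recorded. CD5 is a surface protein used here as a stand-in for the strength of tonic signals from the T cell receptor. The authors placed 174 cells in the CD5 Low class, 349 in Middle and 174 in High, with median CD5 signals of 16646.5, 45073 and 89856 units. The 3 labelled samples are 384-well plates, here called plates 1, 2 and 3.

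Plates 1, 2 and 3 held 172, 201 and 324 cells and 726230, 1113632 and 1404157 unique molecular identifiers (UMIs), each of which marks 1 captured transcript. Median UMIs per cell were between 3749 and 5449 in the plates. Of the 12 naive CD4 T cell markers, 9 had a row, and Cd4 was found in 95.7% of cells. Genes of other cell types were found unevenly. Of the CD8 T cell markers, Cd8a was found in 7 and Cd8b1 in 29 of the 697 cells. Of the NK cell markers, Nkg7 was found in 1 cell and Klrd1 in 63 cells. Of the myeloid markers, Itgam was found in 14 cells, Cst3 in 139 and Ctss in 280. The regulatory T cell factor Foxp3 was found in 56 cells. Plate 2 stood apart in the check of the sort: over cells, Cd5 transcripts and CD5 signal had rank correlations of 0.392, 0.0811 and 0.262 in plates 1, 2 and 3. High and Low levels of the 8 genes are therefore given for each plate, and fits without plate 2 stand beside those of all 3.

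The promoters of the genes that the cell-to-cell results turn on are shown first, because several carry a motif of a factor tied to quiescence or to nutrient sensing. The sequences are RefSeq promoters on GRCm38.p6, from 250 bases before to 50 bases after each start, and all 8 genes matched. 4 motifs were searched on both strands: the FOXO core GTAAACA, the cyclic AMP response element TGACGTCA, the TATA box TATAAA and the carbohydrate response element, a pair of CACGNG boxes with 5 bases between them. None of these motifs overlapped another in the windows printed. FOXO factors act in resting T cells, and the carbohydrate response element is bound by the glucose-sensing pair of MLX with MondoA or ChREBP. Matches stand in capitals, and each sequence runs 5′ to 3′ on the gene's own strand.
Btg1, chr10:96616751-96617050, plus strand: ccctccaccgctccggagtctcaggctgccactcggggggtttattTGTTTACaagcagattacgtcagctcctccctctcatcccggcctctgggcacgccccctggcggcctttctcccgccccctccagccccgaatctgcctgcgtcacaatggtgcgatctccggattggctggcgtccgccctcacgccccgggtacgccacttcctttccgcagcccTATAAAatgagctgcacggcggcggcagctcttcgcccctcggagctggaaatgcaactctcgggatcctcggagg
Txnip, chr3:96557707-96558006, plus strand: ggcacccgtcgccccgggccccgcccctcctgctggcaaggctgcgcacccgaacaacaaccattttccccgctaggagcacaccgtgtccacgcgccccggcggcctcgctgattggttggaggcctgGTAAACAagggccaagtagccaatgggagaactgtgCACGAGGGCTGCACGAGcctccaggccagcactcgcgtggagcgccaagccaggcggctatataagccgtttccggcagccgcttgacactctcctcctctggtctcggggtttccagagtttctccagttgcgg
Dapl1, chr2:59484403-59484702, plus strand: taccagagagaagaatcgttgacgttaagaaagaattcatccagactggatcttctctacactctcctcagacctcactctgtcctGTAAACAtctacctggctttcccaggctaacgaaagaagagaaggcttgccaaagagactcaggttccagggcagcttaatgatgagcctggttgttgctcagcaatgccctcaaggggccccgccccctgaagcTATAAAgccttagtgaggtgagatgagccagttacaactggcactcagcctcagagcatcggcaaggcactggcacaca
Btg2, chr1:134079106-134079405, minus strand: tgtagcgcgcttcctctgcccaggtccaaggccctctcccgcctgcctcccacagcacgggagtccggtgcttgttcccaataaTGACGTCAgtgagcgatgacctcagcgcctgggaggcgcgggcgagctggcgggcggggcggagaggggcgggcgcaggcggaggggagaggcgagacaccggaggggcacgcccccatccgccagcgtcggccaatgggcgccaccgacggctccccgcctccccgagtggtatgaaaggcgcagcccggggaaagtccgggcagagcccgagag

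The FOXO core was in 3 of the 8 promoters: 204 bases before the start of Btg1, where it lies on the opposite strand as TGTTTAC, 121 bases before that of Txnip and 164 bases before that of Dapl1. It was in 3.65% of 32851 RefSeq promoters of this length. The cyclic AMP response element lay 166 bases before the start of Btg2 and in 1.79% of all promoters. The carbohydrate response element lay 85 bases before the start of Txnip and in 16 of the 32851 promoters. The TATA box string TATAAA was in Btg1, Tob1 and Dapl1, and in 13.6% of all promoters. Variants of this string were not searched, so a promoter without it may still hold a TATA box. A match is a string of letters and shows no binding, and Slfn2, Tsc1 and Tsc2 held none of the 4 strings in these windows.

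Btg1 was among the most abundant transcripts of these cells, and Tob1, Tsc2 and Tsc1 were found in few cells. Levels are given as CPM (counts-per-million values), taken on the UMIs of all genes without spike-ins, as the mean ± SD of 3 plates. Because 1 UMI is counted per captured transcript whatever its length, levels can be set side by side between genes, apart from differences in capture.

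Among the BTG/TOB genes, Btg1 had 1017, 1127 and 1106 CPM in plates 1, 2 and 3, a mean of 1083 ± 58.4 (SD, n = 3), and ranked 117 among the 14355 genes. Btg2 had 220, 171 and 184 CPM, a mean of 192 ± 25.8. Tob1 had 45.4, 24.2 and 62.7 CPM, a mean of 44.1 ± 19.2. Plates differed most for Tob1, whose highest plate was 2.58-fold above its lowest, against 1.11-fold for Btg1 and 1.29-fold for Btg2. Tob1 rested on 148 UMIs in all, so its plate values carry a wide counting error.

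Txnip was second in level, with 492, 506 and 568 CPM and a mean of 522 ± 40.4. Dapl1 followed with 251, 230 and 215 CPM and a mean of 232 ± 17.9, which placed it at rank 501 of all genes. Slfn2 had 154, 163 and 174 CPM and a mean of 164 ± 10.2. The subunits of the TSC complex were both low, with 38.6, 39.5 and 45.6 CPM for Tsc2 and 26.2, 32.3 and 22.8 for Tsc1. Tsc2 averaged 41.2 ± 3.81 and Tsc1 27.1 ± 4.84 CPM, and Tsc2 was the higher in all 3 plates.

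From high to low the order was Btg1, Txnip, Dapl1, Btg2, Slfn2, Tob1, Tsc2 and Tsc1. Btg1 was 2.08-fold above Txnip and Txnip 2.25-fold above Dapl1, with no overlap of their plates. The plates of neighbours overlapped for Dapl1 and Btg2, for Btg2 and Slfn2, and for Tob1 and Tsc2, so their ranges over plates do not separate these neighbours. Within plates, Dapl1 was above Btg2 and Btg2 above Slfn2 in all 3, and Tob1 was above Tsc2 in 2. These differences were not tested. The 8 genes together made up 2245, 2292 and 2378 CPM in plates 1, 2 and 3, of which Btg1 alone gave 45.3%, 49.2% and 46.5%.

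None of the 8 genes shared a stretch of 40 bases in the last 400 bases of its transcripts with another gene, so reads near their 3′ ends can be told from those of relatives in the annotation (GENCODE M21). Slfn2 overlaps Gm20234 on the opposite strand, Txnip overlaps Gm15441 and Tsc2 overlaps Pkd1. The sources used here do not say whether strand was used in counting, so reads of these partners cannot be told apart from those of Slfn2, Txnip and Tsc2.

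Cells differed widely in how many of these transcripts they showed. Btg1 was found in 92.1% of cells, with 6 or more UMIs in 34.6% of all cells. Txnip was found in 69.4% of cells, with 6 or more UMIs in 12.9% and a highest value of 33.1 in 1 cell. Slfn2 was found in 39.3%, Btg2 in 36.9% and Dapl1 in 34.3% of cells. Dapl1 had more UMIs than Slfn2 while being found in fewer cells: cells with Dapl1 held a mean of 3.10 UMIs of it, against 1.96 for Slfn2 and 2.37 for Btg2. Tob1 was found in 13.5%, Tsc1 in 9.61% and Tsc2 in 8.90% of cells. Tsc2 had 136 UMIs in only 62 cells, or 2.19 per cell with any, against 1.30 for Tsc1 and 1.57 for Tob1.

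**Figure D1:**
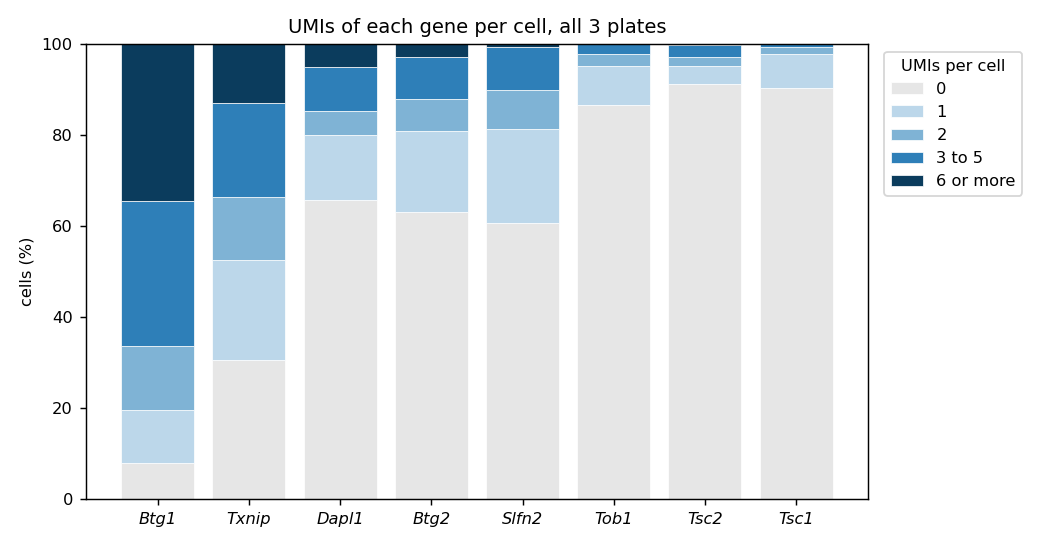
Share of the 697 cells (vertical axis, %) by the number of UMIs of each gene in a cell (shades, 0 to 6 or more), with genes ordered by level on the horizontal axis. Btg1 was at 0 in 7.89% of cells and Tsc2 in 91.1%.

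In cells thinned to 2118 UMIs each, which 557 of the 697 cells reached, 2.15% of cells showed none of the 8 genes, 19.2% showed 1, 34.8% showed 2 and 28.5% showed 3. A further 12.7% showed 4 of them, and 0 of the 557 cells showed 7 or 8. At this depth the absence of a transcript from a cell does not show that the cell lacked it.

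Spread between cells was measured at that common depth as the variance-to-mean ratio, which is 1 for pure counting noise, and set beside the median ratio of the 100 genes nearest in mean. Thinning draws UMIs at random, so the ratios of a second random draw are given too. Dapl1 had a ratio of 2.29, 1.84 and 2.49 in plates 1, 2 and 3, a mean of 2.21 ± 0.331 (SD, n = 3) against 1.54 for like genes. It lay above 90, 68 and 99 of the 100 like genes in plates 1, 2 and 3. Txnip was next, at 2.49, 1.90 and 1.81, a mean of 2.07 ± 0.374 against 1.67 for like genes. Both were above the median of like genes in all 3 plates, Txnip by only 1.06-fold in plate 2. In the second draw Dapl1 averaged 2.10 and Txnip 2.22.

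Btg1 did not stand out: its ratio of 1.53 ± 0.0892 compared with 1.63 for genes of like level, and it lay above 30 to 61 of the 100 like genes. Btg2 had 1.28, 1.84 and 1.93, below the median of like genes in plate 1 and above it in plates 2 and 3. Slfn2 had 1.52 ± 0.311 against 1.56, Tob1 1.55 ± 0.585 against 1.32, Tsc1 1.47 ± 0.306 against 1.30 and Tsc2 1.47 ± 0.187 against 1.32. The SDs of these 4 genes were as large as or larger than their distance from like genes. The value of Tsc2 depends on the draw: it was 2.33 in the second draw, above all of the other 7 genes there, and 2.45 in cells thinned to 4241 UMIs. The order of the 8 genes by this ratio is therefore not fixed by these data. No test was made, since each plate gives 1 value.

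**Figure D2:**
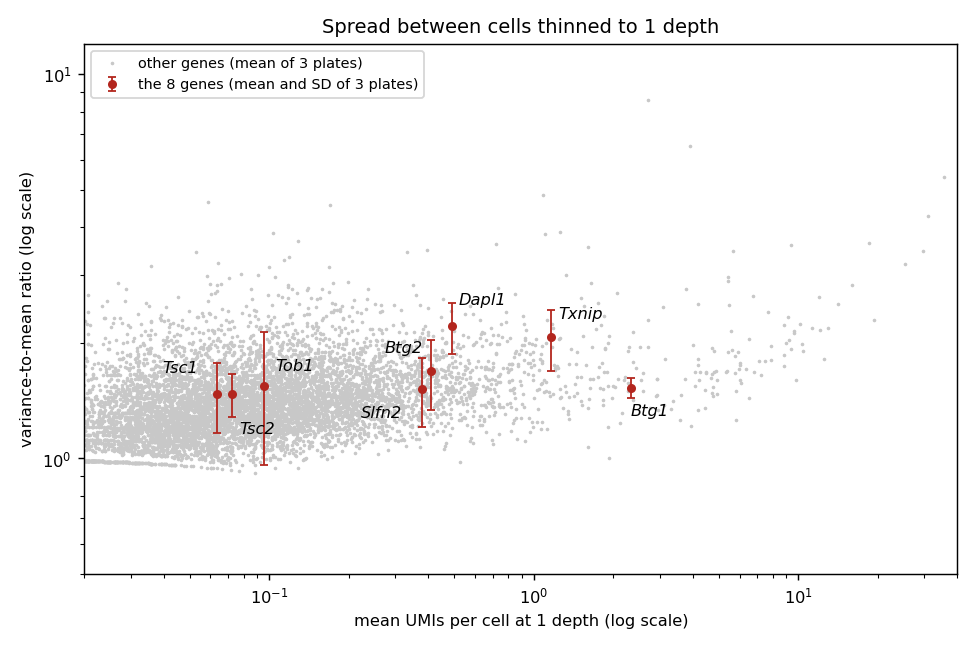
Variance-to-mean ratio (vertical, log scale) against mean UMIs per cell (horizontal, log scale) in cells thinned to 2118 UMIs, with the 8 genes as points with SD of 3 plates and other genes as dots. In this draw Dapl1 (2.21) and Txnip (2.07) have the highest ratios of the 8, while Tsc2 (1.47) was at 2.33 in a second draw, and Btg1 (1.53) lies within the cloud of genes of its level.

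At equal depth the correlations between the 8 genes from cell to cell were small. Means per thinned cell ran from 0.063 UMIs for Tsc1 to 2.33 for Btg1. Counts this low can hide co-variation, so a small value does not show that the genes vary apart. Over the 28 pairs the Spearman correlation over cells, averaged over plates, had a median of 0.0031 and ran from -0.096 for Btg1 with Tsc1 to 0.10 for Btg2 with Txnip. Cells of a plate share its library, and these values are a description over 557 cells. At a second equal depth, 4241 UMIs, they ran from -0.106 for Txnip with Tsc1 to 0.128 for Txnip with Tsc2, so the pairs at the extremes changed, and Btg1 with Tsc1 was at -0.025. In sparse counts correlations of this size are weak, and none of the pairs is put forward as a relation between genes.

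Btg2 and Txnip had correlations between 0.061 and 0.135 in the 3 plates, and Btg2 and Dapl1 between 0.045 and 0.122 with a mean of 0.086. The other pairs positive in all 3 plates were Btg2 with Tob1 (mean 0.036) and Btg1 with Txnip (0.033), 4 in all, and 8 pairs were negative in all 3. How many pairs of genes of like mean keep the same sign in all 3 plates was not counted. Tsc1 and Tsc2, whose proteins work as 1 complex, had a mean of -0.055. They averaged 0.063 and 0.072 UMIs per thinned cell, too few for this value to show whether they move together. For pairs of genes of like mean the median was -0.011. The genes with a FOXO core in the promoters printed above had 0.033 for Btg1 with Txnip, -0.024 for Btg1 with Dapl1 and -0.033 for Txnip with Dapl1.

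Without thinning, cells with more UMIs tend to show more of a gene, and the median over the 28 pairs was 0.0967. These values use all 697 cells, while thinning leaves out cells below the depth, so the cells differ as well as the depth. The highest unthinned pair was then Btg1 with Txnip at 0.27, against 0.033 in cells thinned to 2118 UMIs and 0.121 in those thinned to 4241.

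**Figure D3:**
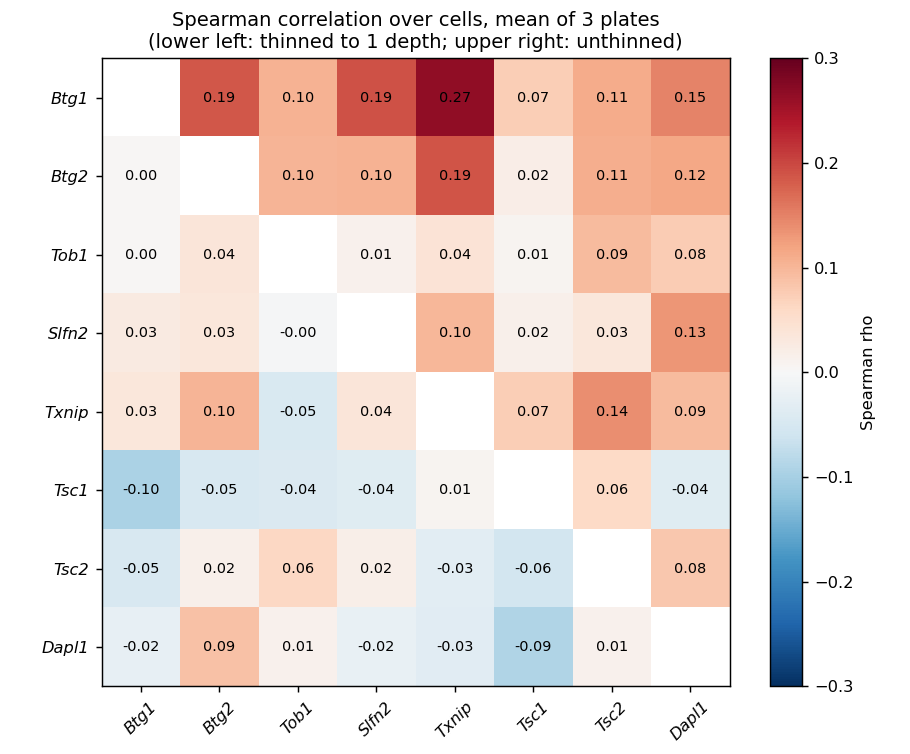
Spearman correlation over cells for each pair of the 8 genes, mean of 3 plates, as colour and number, with thinned cells in the lower left and unthinned cells in the upper right. The lower left (557 cells) runs from -0.096 to 0.10, while the upper right (697 cells) reaches 0.27.

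The genes whose pattern over the thinned cells was most like each of the 5 more abundant genes were sought among 1473 genes that averaged 0.2 or more UMIs in a thinned cell. The 3 named for each were picked as the highest of 1473 correlations. How high such values run without any relation was not tested, and none is put forward as a relation between genes. For Btg1 they were the sialyltransferase gene St6gal1 (0.164), Klf2 (0.157), which encodes a transcription factor of quiescent T cells, and the splicing factor gene Sf3b3 (0.153). For Btg2 they were Hdac7 (0.166), M6pr (0.163) and Chd3 (0.152). For Slfn2 they were Itm2c (0.187), Stat5b (0.155) and Dhx9 (0.153), and Stat5b was at 0.377 in plate 1 but -0.039 in plate 2. For Txnip they were Cpne8 (0.167), Tomm20 (0.139) and Tsc22d4 (0.136). For Dapl1 they were Atp1b3 (0.151), Sec61b (0.142) and Gpx1 (0.140). None of these 5 genes was among the 3 genes most like another of them, and all of these means were below 0.2. Tob1, Tsc1 and Tsc2 averaged fewer than 0.2 UMIs and were not among the genes compared.

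Of the cell measures, total UMIs moved most with Tsc2. At equal depth the mean correlation of Tsc2 with a cell's total before thinning was 0.176, and that of Btg1 was -0.121. In plates 1, 2 and 3 the value for Tsc2 was 0.155, 0.260 and 0.114. When cells of each plate were split into 3 groups of like size by total UMIs, Tsc2 in the richest group had 42.3, 48.6 and 58.5 CPM in plates 1, 2 and 3, against 54.9, 6.25 and 14.4 in the poorest group. By this measure Tsc2 was higher in the richest group in plates 2 and 3 and lower in plate 1. Tsc2 had only 136 UMIs in all cells, so these group values rest on few UMIs. The groups hold all cells of a plate, while the correlation leaves out cells below the depth of thinning. In plate 1, 124 of 172 cells reached that depth, and the poorest group had a median of 1611 UMIs per cell, below it. Much of that group is thus absent from the correlation. The order of the groups in plate 1, opposite to its correlation at equal depth, is therefore not established, and these measures are not directly comparable there. Summed immediate early and heat shock genes, which respond to tissue handling, stood at 3985, 3789 and 6092 CPM in plates 1, 2 and 3. Their correlation with Btg2 over cells was -0.0494, -0.0451 and 0.0215 in plates 1, 2 and 3, and with Txnip 0.0129, -0.0515 and 0.0908.

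The comparison of CD5 classes asked whether cells with stronger tonic signals, read from CD5, hold different levels of these genes. None of the 8 genes passed the test between CD5 High and CD5 Low cells. Counts of the cells of each plate and class were summed and tested with edgeR's quasi-likelihood test with the plate as a block, and p-values were adjusted over all genes tested by the Benjamini-Hochberg method, with a threshold of 0.05. Of the 8 genes, 7 passed the filter on low counts and 0 passed the test, against 0.187% of all 4813 genes tested. The count at an unadjusted p under 0.05 was 1 of 7, Dapl1, against 6.19% of all genes. The labels do not tie the plates to separate animals, so these p-values measure the spread between sums of these plates, which may be technical. That spread is largely shared between genes, with 38.4 prior against 4 residual degrees of freedom. SEs and intervals are thus not a gene's own spread alone. In sums over cells, fewer cells with a transcript and fewer transcripts per cell cannot be told apart.

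Dapl1 had 258, 251 and 257 CPM in CD5 High cells of plates 1, 2 and 3, against 91.8, 223 and 132 in CD5 Low cells. High cells lay close together and Low cells were spread, and the 2 groups did not overlap, which held for 7.90% of all genes tested in either direction. The ratio in plate 2 was within its counting error. The log2 change was 0.77 (SE 0.26, 95% interval 0.24 to 1.29), and the adjusted p from edgeR was 0.595. The log2 ratios of plates 1, 2 and 3 were 1.49, 0.17 and 0.96, so Dapl1 was higher in High cells in all 3 plates, as were 11.9% of all genes tested. Middle cells had 349, 223 and 239 CPM, so that in plate 1 they were above both other classes. Without plate 2 the log2 change was 1.17 with an edgeR adjusted p of 0.0629, and without plate 1 it was 0.55 with 0.88.

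The share of cells with Dapl1 at equal depth was 25.0% in High cells (exact 95% interval 17.9 to 33.3) and 20% in Low cells (13.9 to 27.3), and 29.8% in Middle cells. These intervals overlapped and cover counting error only. Regulatory T cell markers, all 4 with a row, summed to 35.4, 136 and 118 CPM in High cells of plates 1, 2 and 3. Low cells had 14.5, 108 and 60.7 CPM, so the sum was higher in High cells within each plate. Its single markers differed: Foxp3 had 0, 55.7 and 67.6 CPM in High cells, against 0, 27.9 and 41.4 in Low cells. Ikzf2 had 30.3, 38.3 and 37.2 CPM in High cells, against 14.5, 67.8 and 11.0 in Low cells. The 5 markers of memory or effector T cells with a row summed to 142, 115 and 125 CPM in High cells, against 101, 128 and 77.2 in Low cells, with Ccl5 at 0 in all cells. The part of these markers in the Dapl1 values was not tested beyond 1 measurement: without the 56 cells with a Foxp3 UMI its log2 change was 0.67. High cells had a median of 3818 UMIs per cell and Low cells 4554, and with all cells thinned to 1 depth the log2 change of Dapl1 was 0.78.

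**Figure D4:**
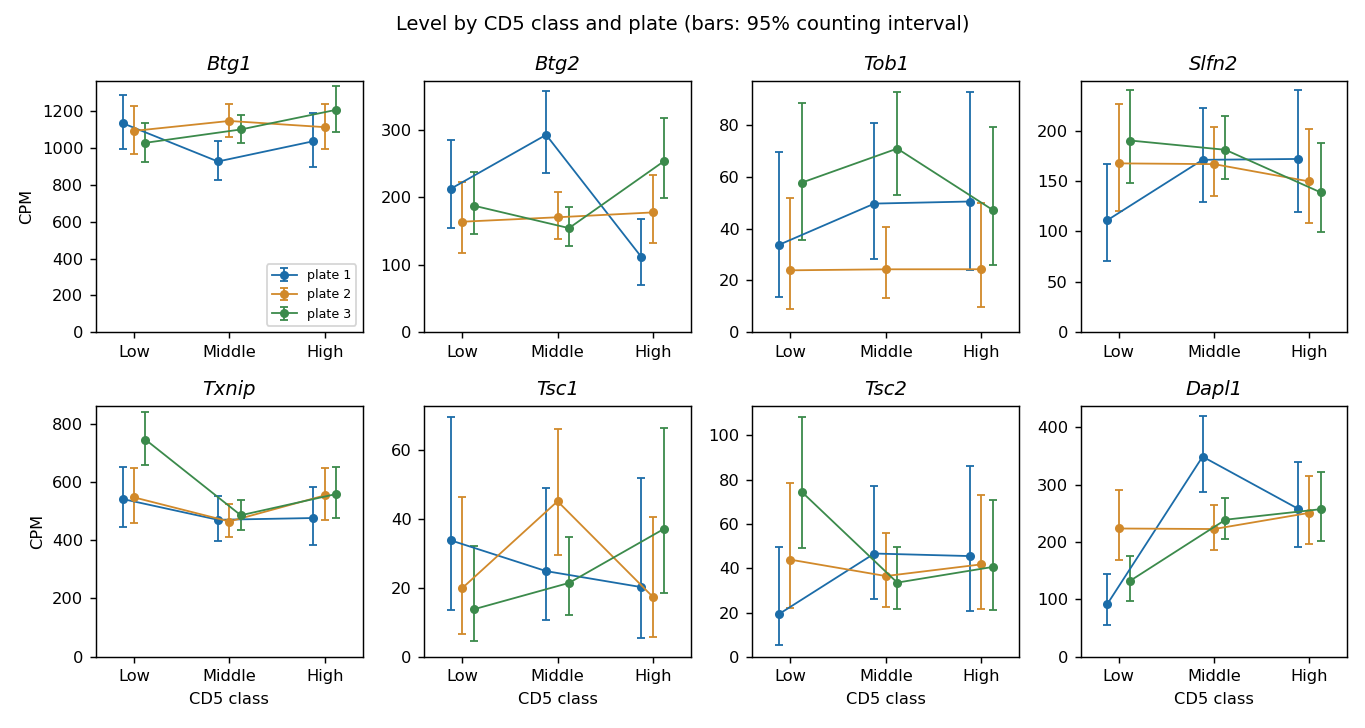
Level of each gene (CPM, each panel from 0) in the CD5 classes Low, Middle and High of each plate (colours), with exact 95% counting intervals. Dapl1 in Low cells of plates 1 and 3 (91.8 and 132) lies below all other Dapl1 values, and the other 7 genes have overlapping High and Low values.

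Among the BTG/TOB genes the class ratios were small or went both ways. Btg1 had 1038, 1114 and 1208 CPM in High cells of plates 1, 2 and 3, against 1136, 1094 and 1029 in Low cells. Its log2 change was 0.05 (SE 0.12) with an edgeR adjusted p of 0.984, and its interval ran from 0.88-fold to 1.22-fold. Btg2 had 111, 177 and 254 CPM in High cells, against 213, 164 and 188 in Low cells. High cells were thus lower in plate 1, with a log2 ratio of -0.93 that was beyond its counting interval, and higher in plate 3, at 0.44, which left a log2 change of 0.01 (SE 0.27). Tob1 had 50.6, 24.4 and 47.3 CPM in High cells, against 33.8, 23.9 and 57.9 in Low cells, a log2 change of 0.08 (SE 0.49).

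Txnip had 476, 554 and 558 CPM in High cells, against 541, 547 and 745 in Low cells. Only in plate 3 was its lower value in High cells beyond the counting interval, and the log2 change was -0.20 (SE 0.15, edgeR adjusted p 0.931). Slfn2 had 172, 150 and 139 CPM in High cells, against 111, 168 and 190 in Low cells. Its plates went opposite ways, and the log2 change was -0.05 (SE 0.26). The intervals of the fit allowed 0.67-fold to 1.39-fold for Slfn2 and 0.70-fold to 1.08-fold for Txnip.

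The TSC genes were too low for a narrow estimate. Tsc2 had 45.5, 41.8 and 40.6 CPM in High cells, against 19.3, 43.9 and 74.4 in Low cells, and its interval ran from 0.45-fold to 1.81-fold around a log2 change of -0.14. Tsc1 had 4, 5 and 11 UMIs in High cells, against 7, 5 and 5 in Low cells, and did not pass the filter. The fit does not exclude Tsc2 differences within that interval, and Tsc1 was not tested in this fit. The interval is not a limit of detection, since calls rest on p-values adjusted over all genes tested. Without plate 2 the log2 changes were 0.08 for Btg1, -0.04 for Btg2, 0.09 for Tob1, -0.30 for Txnip, 0.02 for Slfn2, -0.17 for Tsc2 and 0.44 for Tsc1, which passed the filter there, with edgeR adjusted p of 0.897 for Txnip and above it for the others.

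**Figure D5:**
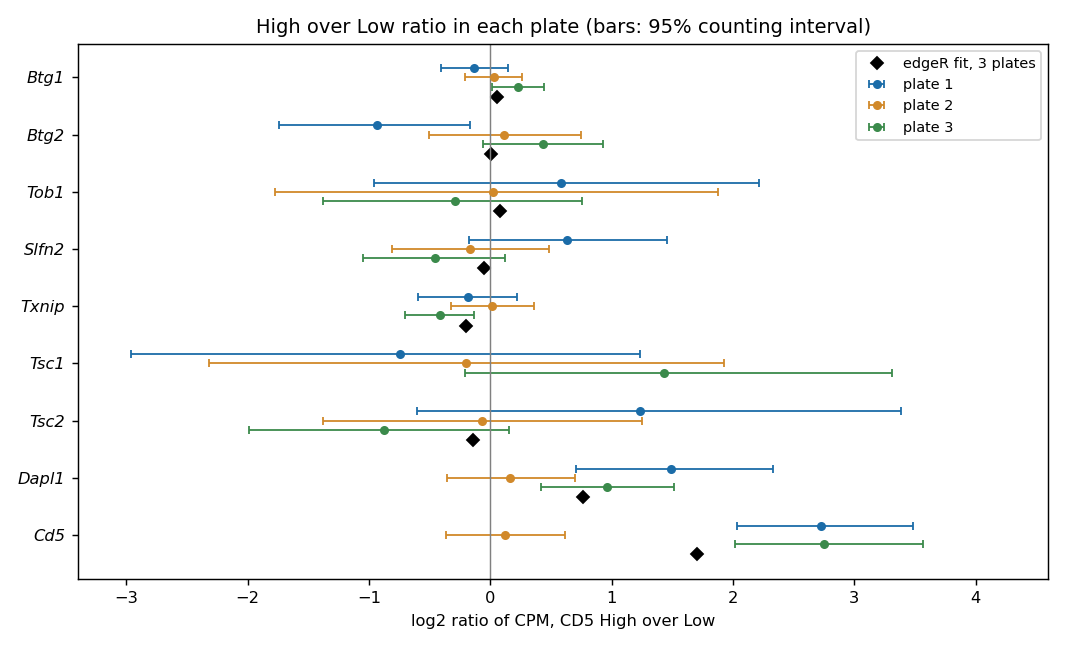
Log2 ratio of CPM in CD5 High over Low cells (horizontal axis) for each gene and for Cd5, in each plate (coloured points with 95% counting intervals) and from the edgeR fit of the 3 plates (black diamonds, none for Tsc1). Dapl1 is above 0 in all 3 plates with 0.17 in plate 2, while Cd5 is at 2.72, 0.12 and 2.75 in plates 1, 2 and 3.

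Cd5 itself, the transcript of the sorted protein, had a log2 change of 1.70 (SE 0.30, edgeR adjusted p 0.00213), with 0.12 in plate 2. Without plate 2 it was 2.76 (edgeR adjusted p 1.12e-09). The call on Cd5 was lost without plate 1 (1.21, edgeR adjusted p 0.714) and without plate 3 (1.29, 0.0586), with no plate block (adjusted p 0.788) and with the DESeq2 Wald test (adjusted p 0.998), and it held in 9 of 13 alternatives. Dapl1 also had its smallest High over Low ratio in plate 2, at 0.17. In plates 1 and 3 Dapl1 was at 1.49 and 0.96, and Cd5 at 2.72 and 2.75. With 3 plates such a match can arise by chance, and a link was not tested. Over the 7 genes tested the median log2 change was 0.01, and over all 4813 genes it was 0.004.

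A trend over CD5 used every cell: each plate was cut into 4 bins of equal size by CD5 signal, and the slope on log2 CD5 was fitted with edgeR and the plate as a block. All 8 genes passed the filter and 0 passed the test, against 0.140% of 4996 genes tested. At an unadjusted p under 0.05 there was 1 of 8, Dapl1, against 4.82% of all genes. Dapl1 changed by 0.29 log2 units per doubling of CD5 (SE 0.11, edgeR adjusted p 0.861). Its slopes in plates 1, 2 and 3 were 0.66, 0.07 and 0.29, and without plate 2 the fitted slope was 0.41 with an edgeR adjusted p of 0.243.

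By bin from low to high CD5, Dapl1 averaged 143, 263, 270 and 253 CPM. The lowest bin had 79.7 and 149 in plates 1 and 3 and 200 in plate 2, and it stood below the second bin in all 3 plates, while bins 2 to 4 had no order shared by the plates. Txnip averaged 594, 460, 484 and 556 CPM over the same bins, with its lowest mean in the second bin. The slopes of the other 7 genes were between -0.11 for Tsc2 and 0.09 for Tsc1 per doubling of CD5, and none of these 7 had the same sign of slope in all 3 plates. Without plate 2 the slopes of the 6 of them that were tested ran from -0.22 for Tsc2 to 0.03 for Slfn2. Btg1 had 0.03 (SE 0.05), the narrowest estimate of the 8, with an interval of -0.07 to 0.12.

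The partners of these genes in their pathways gave 0 passing genes in either fit. Of 16 CCR4-NOT and PAN deadenylase genes, 12 were tested between High and Low cells, with 3 higher in High cells, and the median log2 change was -0.08. The smallest p in this list was that of Rqcd1, the older symbol of Cnot9, at -0.94 (SE 0.67, edgeR adjusted p 0.929), followed by Cnot2 at -0.21. Of the 3 remaining BTG/TOB relatives only Tob2 was tested, at -0.48 (SE 0.41). Of 32 genes around TSC and mTORC1, 17 were tested, with 8 higher, and the median was -0.15. Lamtor5, part of the Ragulator complex that anchors mTORC1 at lysosomes, was at 1.06 (SE 0.54, edgeR adjusted p 0.819). It was higher in High cells in 3 of 3 plates, as were 11.9% of all genes tested. Rheb, the GTPase that TSC switches off, was at 0.64 (SE 0.35) and lower in High cells in plate 2.

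Around TXNIP, 6 of 13 genes were tested, with 3 higher and a median of -0.10. Txn2, the mitochondrial thioredoxin, was at -0.51 (SE 0.30) and the glucose transporter gene Slc2a3 at 0.42 (SE 0.49). Of 7 other Schlafen genes, 4 were tested. Slfn9 had 131, 171 and 183 CPM in High cells of plates 1, 2 and 3, against 67.6, 108 and 110 in Low cells. These values did not overlap, which held for 7.90% of all genes tested in either direction. The log2 change was 0.76 (SE 0.28) with an edgeR adjusted p of 0.746. Slfn1 was at -0.19 (SE 0.21).

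Of 17 cell cycle inhibitors and DREAM complex genes, 7 were tested, with 5 higher and a median of 0.15. Rbl1, which encodes the pocket protein p107, was at 0.83 (SE 0.52) and Cdkn1b, which encodes the inhibitor p27, at 0.35 (SE 0.23). Of 12 other regulators of T cell quiescence, 9 were tested, with 5 higher and a median of 0.05. Ets1 was at 0.28 (SE 0.14, edgeR adjusted p 0.791). It was higher in High cells in 3 of 3 plates, as were 11.9% of all genes tested. The gene 4632428N05Rik, the older symbol of Vsir, which encodes the checkpoint receptor VISTA, was at -0.47 (SE 0.26). Of 21 proliferation genes, 7 were tested, with 4 higher and a median of 0.02, and the 2 of smallest p were Mcm7 (-0.56) and Cdk4 (-0.39). Of 17 immediate early and heat shock genes, 16 were tested, with 7 higher and a median of -0.03, and the 2 of smallest p were Fos (-0.33) and Ier2 (0.45). Of all 4813 genes, 50.4% were higher in High cells.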

How the data were processed

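Single cells were sorted into 384-well plates, profiled by SORT-seq with UMIs of 6 bases and sequenced on the NextSeq 550, per the labels' protocols. BWA (version not given in the sources used here) and the build mm10 are named in the submitters' processing notes. The authors deposited expected counts, transcripts estimated per gene and cell: 100% of nonzero values lay within 0.005 of the number that a collision correction over 4096 UMI sequences gives. The deposited CD5 value is a fluorescence signal, and the CD5 class is the authors' label, with Low at or below 26610 and High at or above 69889. The sources used here do not say how cells and genes were kept.

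Spike-ins (19.6% of counts) entered no level or fit. The plates share well numbers (285 of 372 numbers occur in 2 or more plates), and each plate is a library of its own. No doublet caller was run on these single-cell sorts. Sums per plate and class were rounded and tested two-sided with edgeR 4.0.16 (TMM, filterByExpr) in R 4.3.3, and DESeq2 1.42.0 was an alternative. The edgeR test was also run on simulated counts, which held no plate effect. The plate was a block because the classes of a plate share its library: deviations from class means over 408 genes correlated at 0.379 to 0.710. Python 3.11.15, numpy 2.4.6, pandas 2.3.3, scipy 1.17.1 and matplotlib 3.10.9 were used. Binomial and Poisson intervals are exact at 95% and cover counting error only.

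The members and lists were chosen with earlier results of these data known. Beside the members and Cd5, the 2 genes of smallest p in each pathway list and the 3 genes most like each member with at least 0.2 UMIs per thinned cell are named. Alternatives changed the scaling, test, filter, block, bins, depth, classes, plates or cells.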

Additional observations from a re-analysis of the deposited data

How the results depend on the processing

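Wherever a gene was tested, 0 of the 8 passed in either fit under any alternative. Filters left Tsc1 with a value in only 4 of 13 High minus Low and 7 of 14 trend alternatives, and Tob1 and Tsc2 in 11 of 13 and 12 of 14 each. Slfn2 had one in 13 of the 14 trend alternatives. Dapl1 kept its direction in all 13 alternatives of the High minus Low fit, at 0.55 to 1.17 on the log2 scale, with adjusted p between 0.0629 and 0.998 and an unadjusted p under 0.05 in 12. It also kept it in the 14 of the trend, at 0.19 to 0.41. The count of all genes called moved more: between High and Low, 9 genes were called, against 0 with the DESeq2 Wald test (147 with an unadjusted p under 0.05), 16 with no filter, 0 with no replicate block (196 unadjusted) and 2 without cells over 2% Kcnq1ot1. It was 0 to 20 with 1 plate left out, where 0 came without plate 1 (290 unadjusted) or plate 3 (280) and 20 without plate 2. For the trend, 7 genes were called, against 3 with the DESeq2 Wald test, 0 with no replicate block (166 unadjusted), 11 with 3 bins, 3 with 6 bins, 1 without cells over 2% Kcnq1ot1, and 0 to 14 with 1 plate left out (0 without plate 1, at 266 unadjusted, or plate 3, at 216).

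Estimates near 0 changed sign, none of them past the threshold, and the cause was not tested. Between High and Low, Btg2 was at -0.017 with the DESeq2 Wald test, -0.015 with no filter, -0.02 with no replicate block, -0.106 with the lowest and highest of 4 CD5 bins of each plate and -0.147 without cells with a Foxp3 UMI. Without those cells Tob1 was at -0.639 and Tsc2 at 0.085. Tob1 was at -0.084 without cells over 2% Kcnq1ot1, Slfn2 at 0.028 with those bins, and Txnip at 0.015 with thinned cells. In the trend, thinned cells gave Btg1 -0.013 and Btg2 0.019, and 6 bins gave Btg2 0.035. Tob1 was at 0.002 without cells over 2% Kcnq1ot1, and Tsc1 at -0.086 with 3 bins and -0.019 without Foxp3 cells. With 1 plate left out, the High minus Low values ran from -0.075 to 0.129 for Btg1, -0.34 to 0.292 for Btg2, -0.153 to 0.296 for Tob1, -0.315 to 0.164 for Slfn2 and -0.526 to 0.406 for Tsc2. The trend values ran from -0.155 to 0.026 for Btg2, -0.074 to 0.016 for Tob1, -0.025 to 0.084 for Slfn2, -0.116 to 0.01 for Txnip and -0.22 to 0.144 for Tsc2.

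Levels without chromosome M and Rn45s were higher by construction, with Btg1 at 1318 and Dapl1 at 282 CPM. With cells thinned to 4241 UMIs, the median of totals, the variance-to-mean ratio was 3.66 for Dapl1, 2.45 for Tsc2, 2.39 for Btg2 and 2.33 for Btg1. At that depth 11 of the 28 pair correlations moved by more than the SD between plates. Depth limits Tsc1, Tsc2 and Tob1 most, with 87, 136 and 148 UMIs in all cells.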
